A study of Homo sapiens with 8 samples.

Results

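The AP-1 family was followed through 9 genes, FOS, FOSB, FOSL1, FOSL2, JUN, JUNB, JUND, ATF3 and BATF3, taken by symbol from count tables that list 61228 gene names. All 9 were found and all 9 passed the filter on low counts, which left 21307 genes for testing. The RNA came from the cell lines H1975 and HCC44, both from human lung cancers and both with the genotype label WT. Each line received DMSO, the solvent, or ACBI1 for 96 hours, with the ACBI1 concentration labelled as 1 mM, a unit taken as written. Each of the 4 groups (H1975 DMSO, H1975 ACBI1, HCC44 DMSO and HCC44 ACBI1) held 2 libraries. ACBI1 is a degrader that links the SWI/SNF remodeller proteins SMARCA2, SMARCA4 and PBRM1 to the VHL ubiquitin ligase. It acts on protein, so transcript levels do not check the treatment labels. The results are limited to these lines, and nothing in the labels says whether the replicates came from separate cultures, so p-values measure only the spread between these libraries, which may be technical.

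AP-1 is a dimer of basic leucine zipper (bZIP) proteins. JUN proteins pair with each other or with FOS proteins, FOS proteins need a JUN partner, and ATF3 and BATF3 join the same network. FOS and FOSB are transient transcripts made within minutes of a growth signal, while FOSL1 and FOSL2, which lack the strong activation domain of FOS, accumulate under lasting MAPK signalling. AP-1 binds at enhancers, where it is known to recruit SWI/SNF to open chromatin.

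The members were first compared by their promoters. RefSeq upstream sequence (GRCh38.p14) was at hand for 7 of the 9, all but FOSL1 and BATF3. Starts here are those of RefSeq and can differ from the ends of the GENCODE gene spans given below. The JUN and FOSL2 stretches shown thus lie inside those spans. Searched over the 250 bases before each start and on both strands, the half-site TGACGT of the cAMP response element lay in FOS, FOSB, FOSL2 and JUND, against 7.1% of 35116 promoters. JUN and the upstream start of ATF3 held TGACATCA, found in 2.37% of promoters. In FOS, FOSB, FOSL2 and JUN these letters began 60 to 67 bases before the start, so the 30 bases from 80 to 51 before it are shown side by side, 5′ to 3′, with the matched letters in capitals.
FOS, chr14:75278748-75278777 (+): accgtggttgagcccgTGACGTttacactc
FOSB, chr19:45467916-45467945 (+): tttgtccagcaaggggcgggTGACGTaagc
FOSL2, chr2:28392778-28392807 (+): gtggagtctggggtTGACGTgagtgaatcc
JUN, chr1:58784098-58784127 (-): gaaggccttggggTGACATCAtgggctatt

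JUNB and JUND are shown over the whole 250 bases, because their responses to ACBI1 were called as different between HCC44 and H1975. For JUND that call was lost in some fits with 1 library left out. Capitals in JUNB mark TATAAA, read on the gene's strand only, and in JUND the full element TGACGTCA (1.65% of promoters), which contains a half-site, and a further half-site read as ACGTCA.
JUNB, chr19:12791236-12791485 (+): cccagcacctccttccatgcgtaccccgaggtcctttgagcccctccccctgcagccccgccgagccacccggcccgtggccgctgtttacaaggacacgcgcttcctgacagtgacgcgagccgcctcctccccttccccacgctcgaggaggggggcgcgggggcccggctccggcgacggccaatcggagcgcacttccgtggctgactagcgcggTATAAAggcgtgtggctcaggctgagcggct
JUND, chr19:18281623-18281872 (-): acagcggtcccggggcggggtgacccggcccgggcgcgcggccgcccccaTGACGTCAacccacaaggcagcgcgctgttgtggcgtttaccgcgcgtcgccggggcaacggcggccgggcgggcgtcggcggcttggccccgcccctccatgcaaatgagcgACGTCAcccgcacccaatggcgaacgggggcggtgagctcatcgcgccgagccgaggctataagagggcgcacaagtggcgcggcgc
TATAAA also lay in FOS, FOSB and the downstream start of ATF3, against 6.8% of promoters. It began 33, 30 and 31 bases before the start in FOS, FOSB and JUNB, but 230 bases before it in ATF3. The AP-1 element itself, TGACTCA or its reverse complement TGAGTCA, was in none of the 8 upstream windows of these 7 genes (ATF3 has 2 starts) and in 4.2% of all promoters. With the 50 bases after the start added, it was in FOSL2 and in 4.95% of promoters. The serum response element's CArG box was likewise in none of the 8 upstream windows, against 1.16% of promoters. Sequence more than 250 bases before the start was not searched, so an element farther upstream would be missed.

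JUN, JUNB and JUND are built mostly as single-exon genes, with at most 1, 1 and 2 exons in any GENCODE 29 transcript, where the other members reach 3 to 5. JUNB (chr19:12791496-12793315, + strand) and JUND (chr19:18279760-18281622, - strand) lie 5486.4 kb apart. ATF3 (chr1:212565334-212620777, + strand) and BATF3 (chr1:212686418-212699985, - strand) point toward each other across a gap of 65.6 kb that holds 1 other coding gene. FOS (chr14:75278774-75282230, + strand) is followed by JDP2, another bZIP gene, after 145.5 kb with no coding gene between them. The remaining members are at chr19:45467995-45475179 (FOSB, + strand), chr11:65892049-65900573 (FOSL1, - strand), chr2:28392448-28417312 (FOSL2, + strand) and chr1:58780788-58784327 (JUN, - strand). Exons of HOOK2, on the opposite strand, cover 14.2% of the JUNB exon, so JUNB counts are uncertain to that extent without a stated strand setting. HOOK2 had 2742 to 5784 counts per library, where JUNB had at least 25209.

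Gene counts summed to 62467286 to 70455517 per library. Every member had at least 2091 counts in each library, except BATF3 with 203 to 474. The epithelial markers KRT7 and KRT18 were present in both lines. NKX2-1, a lung adenocarcinoma lineage factor, was at 19.2 to 27.5 CPM (counts per 1000000 library counts, TMM-scaled) in H1975 and at most 0.0318 CPM in HCC44, and the epithelial EPCAM was at 137 to 184 CPM in H1975 and 10.4 to 19.4 CPM in HCC44. The 6 epithelial markers summed to 5137 to 5393 CPM in H1975 DMSO, 2331 to 2808 CPM in H1975 ACBI1, 940 to 980 CPM in HCC44 DMSO and 1199 to 1658 CPM in HCC44 ACBI1. Of these, CDH1 was at 104 to 250 CPM in H1975 and 4.10 to 10.3 CPM in HCC44. In HCC44 KRT7 rose from 423 and 459 CPM to 751 and 1122 CPM with ACBI1. KRT8 fell there from 228 and 205 CPM to 146 and 157 CPM. The 3 mesenchymal markers summed to 2211 to 2805 CPM in H1975 DMSO and 935 to 1026 CPM in H1975 ACBI1. In HCC44 they summed to 447 to 549 CPM with DMSO and 633 to 833 CPM with ACBI1. The 5 leukocyte markers summed to at most 3.55 CPM in any library, nearly all of it CD14 in HCC44 DMSO, with PTPRC at most 0.048 CPM and CD3E at 0. Of the 4 fibroblast markers DCN was at 0 in all 8 libraries, while COL1A1 was at 89.5 and 71.1 CPM in HCC44 DMSO and 200 and 404 CPM in HCC44 ACBI1, and at 68.9 and 44.4 CPM in H1975 DMSO and 28.9 and 22.9 CPM in H1975 ACBI1. The part of these marker changes in the results was not tested. In HCC44 DMSO the replicates stood apart for this family. Replicate 1 was above replicate 2 for 8 of the 9 members and by 2-fold or more for 3 of them, a gap seen in 1.61% of all tested genes. The immediate-early genes, a list of 21 transcripts induced together with FOS, moved with it: 21 of 21 were higher in replicate 1, with a median ratio of 1.56 where the median over all tested genes was 1. The origin of that gap was not tested, and for FOS, FOSB, JUN and ATF3 in HCC44 values are also given without that library. In a fit that leaves a group with 1 library, that library is assumed to vary like those of the other groups.

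**Figure D1:**
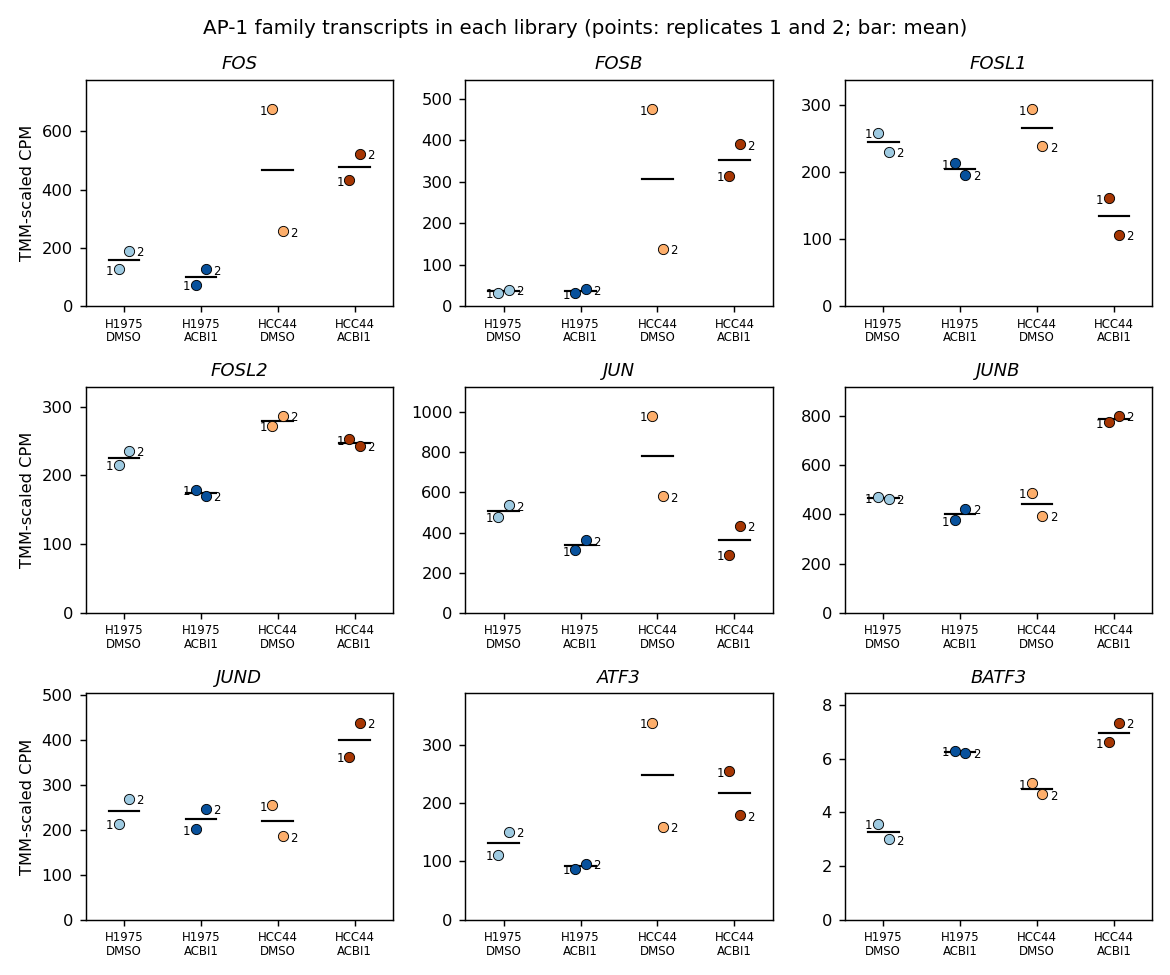
Level of each AP-1 family transcript in the 8 libraries, in TMM-scaled CPM on linear axes from 0, with the replicate number beside each point and a bar at the mean of 2. JUNB and JUND stand highest in HCC44 ACBI1, FOSL1 lowest there, and the HCC44 DMSO replicates of FOS, FOSB, JUN and ATF3 lie far apart.

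In HCC44, ACBI1 was followed by less JUN and FOSL1 and by more JUNB, JUND and BATF3. Adjusted p-values throughout come from quasi-likelihood tests in edgeR, adjusted by the Benjamini-Hochberg method over all tested genes, and a gene was called under 0.05. So 5 of 9 members were called, 3 up and 2 down, where 34.9% of all tested genes were called in this line, 17.5% up and 17.4% down. The median log2 fold change of the members was 0.035, against 0.006 over all genes. Without DMSO replicate 1 that median was 0.57, with 5 members called, and without DMSO replicate 2 it was -0.43, with 4 called.

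JUN, the most potent transactivator of the JUN proteins, was at 980 and 581 CPM in the DMSO replicates and at 290 and 432 CPM in the ACBI1 replicates. Both ACBI1 libraries were below both DMSO libraries. The log2 fold change was -1.11 ± 0.27 (SE), a 2.16-fold fall, with an adjusted p of 0.0173. It fell under all 17 alternative settings, by 0.69 on the log2 scale without DMSO replicate 1 (adjusted p 0.0445), and the call was lost under 7 of them, among them a fit without any filter (adjusted p 0.13) and one without ACBI1 replicate 1 (-0.85, adjusted p 0.0878). Leaving out any of the 4 H1975 libraries, which only share the estimate of spread, also ended the call (adjusted p 0.059 to 0.074).

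FOSL1, which encodes FRA-1, was at 294 and 239 CPM with DMSO and at 161 and 107 CPM with ACBI1. The groups did not overlap, and the log2 fold change was -0.99 ± 0.18, a 1.99-fold fall with an adjusted p of 0.00286. This call held under all 17 alternatives, with values from -1.32 to -0.72. FOSL2, encoding FRA-2, was at 272 and 286 CPM with DMSO and 252 and 243 CPM with ACBI1, and was not called (-0.17 ± 0.085, 95% interval -0.36 to 0.01, adjusted p 0.14).

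JUNB, a JUN protein often described as a weaker activator, was at 488 and 395 CPM with DMSO and at 775 and 800 CPM with ACBI1. The 1.78-fold rise (log2 fold change 0.83 ± 0.11, adjusted p 0.000204) held under all 17 alternatives, between 0.69 and 0.99. JUND, the JUN protein usually present at steady levels, went from 254 and 186 CPM to 361 and 437 CPM. Its log2 fold change of 0.86 ± 0.18 (adjusted p 0.00579) was a 1.82-fold rise, and it was 0.72 with an adjusted p of 0.0507 without ACBI1 replicate 2. Neither gene's DMSO and ACBI1 libraries overlapped, which was also true of 66.8% of all tested genes in this line.

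FOS and FOSB, the rapidly induced members, were not called in HCC44. FOS was at 676 and 257 CPM with DMSO and at 432 and 524 CPM with ACBI1, so the ACBI1 libraries sat between the DMSO ones. Its log2 fold change of 0.04 ± 0.46 had a 95% interval of -1.04 to 1.11 (adjusted p 0.986). Without DMSO replicate 1 it was 0.89 (adjusted p 0.11), and without DMSO replicate 2 it was -0.50 (adjusted p 0.328). FOSB was at 475 and 139 CPM with DMSO and at 314 and 390 CPM with ACBI1, a log2 fold change of 0.20 ± 0.49 (95% interval -0.95 to 1.35, adjusted p 0.803). Against DMSO replicate 2 alone the FOSB value was 1.34 (adjusted p 0.00223), and against DMSO replicate 1 alone it was -0.43 (adjusted p 0.144). These fits leave out the 3.42-fold gap between the DMSO replicates, so their p-values take FOSB's spread from the other groups.

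ATF3, a stress-induced factor that can repress as a homodimer, followed the same layout, with 338 and 159 CPM in DMSO and 255 and 179 CPM in ACBI1. Its log2 fold change was -0.20 ± 0.34 (95% interval -1.01 to 0.62, adjusted p 0.714) and turned to 0.44 without DMSO replicate 1. BATF3, a small bZIP protein known for dendritic cell development, was the rarest member at 5.09 and 4.69 CPM with DMSO and 6.63 and 7.35 CPM with ACBI1. The rise of 0.52 ± 0.18 on the log2 scale had an adjusted p of 0.0414, and 7 of 17 alternatives left it uncalled (adjusted p up to 0.185): a fit without a filter and fits without any single HCC44 library or either H1975 ACBI1 library.

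**Figure D2:**
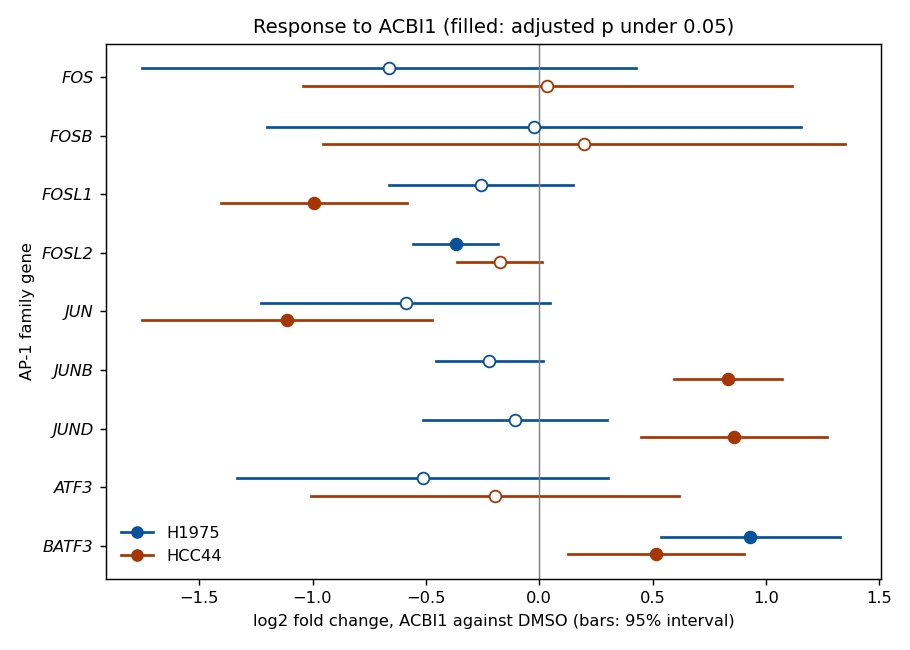
Log2 fold change of each member with ACBI1 against DMSO in H1975 and HCC44, with 95% intervals from the fit to all 8 libraries (filled points: adjusted p under 0.05). In HCC44 JUNB (0.83) and JUND (0.86) lie to the right of 0 and JUN (-1.11) and FOSL1 (-0.99) to the left, while FOS and FOSB have intervals wider than 2 log2 units.

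In H1975, ACBI1 was followed by called changes in 2 of 9 members, FOSL2 down and BATF3 up. This is a smaller share than the 31.3% of all tested genes called in the line, so the count is not a result about the family. The median of the 9 was -0.26, against -0.014 for all genes, and 8 of the 9 log2 fold changes were below 0 on the TMM scale. With library totals in place of TMM factors the members' median was -0.054, and FOSB (0.18) and JUND (0.095) were above 0.

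FOSL2 was at 215 and 236 CPM with DMSO and 179 and 170 CPM with ACBI1, without overlap. Its log2 fold change was -0.37 ± 0.085, a 1.29-fold fall with an adjusted p of 0.00776. The call was lost with library totals (-0.17, adjusted p 0.157) and in fits without DMSO replicate 2 (-0.25), ACBI1 replicate 1 (-0.37) or ACBI1 replicate 2 (-0.31). BATF3 rose from 3.57 and 3.0 CPM to 6.30 and 6.24 CPM, a 1.91-fold rise (log2 fold change 0.93 ± 0.18, adjusted p 0.0029), which held under all 17 alternatives. BATF3 was the only member called in both lines, and the sign was the same, as for 12.9% of all tested genes. No member was called in both lines with opposite signs, which 2.23% of all tested genes were.

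The other H1975 values were not called. JUN was at 478 and 535 CPM with DMSO and 312 and 362 CPM with ACBI1 (log2 fold change -0.59 ± 0.27, 95% interval -1.23 to 0.05, adjusted p 0.146). The groups did not overlap, and JUN was called with H1975 fitted alone (adjusted p 0.00589), with DESeq2 (-0.56, adjusted p 0.0436) and without HCC44 DMSO replicate 1 (adjusted p 0.0358) or replicate 2 (adjusted p 0.0361). FOS was at 126 and 189 CPM with DMSO and 73.4 and 126 CPM with ACBI1 (-0.66 ± 0.46, 95% interval -1.75 to 0.43, adjusted p 0.326), with the higher ACBI1 library just under the lower DMSO one. ATF3 was at 111 and 151 CPM with DMSO and 87.2 and 96.0 CPM with ACBI1 (-0.51 ± 0.35, adjusted p 0.311), and it was called with H1975 fitted alone (adjusted p 0.034). The ATF3 groups did not overlap, in a line where that held for 67.3% of all tested genes.

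The values of FOSL1, JUNB, JUND and FOSB in H1975 were nearer to 0. FOSL1 was at 259 and 231 CPM with DMSO and 214 and 196 CPM with ACBI1 (-0.26 ± 0.18, 95% interval -0.66 to 0.15, adjusted p 0.317). JUNB was at 470 and 462 CPM with DMSO and 377 and 423 CPM with ACBI1 (-0.22 ± 0.11, 95% interval -0.46 to 0.02, adjusted p 0.146). JUND was at 212 and 269 CPM with DMSO and 201 and 246 CPM with ACBI1 (-0.11 ± 0.18, 95% interval -0.51 to 0.30, adjusted p 0.692), so its groups overlapped. FOSB was at 32.5 and 39.5 CPM with DMSO and 30.7 and 40.2 CPM with ACBI1 (-0.02 ± 0.50, 95% interval -1.20 to 1.154, adjusted p 0.983), an interval that leaves changes of over 2-fold in either direction possible.

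**Figure D3:**
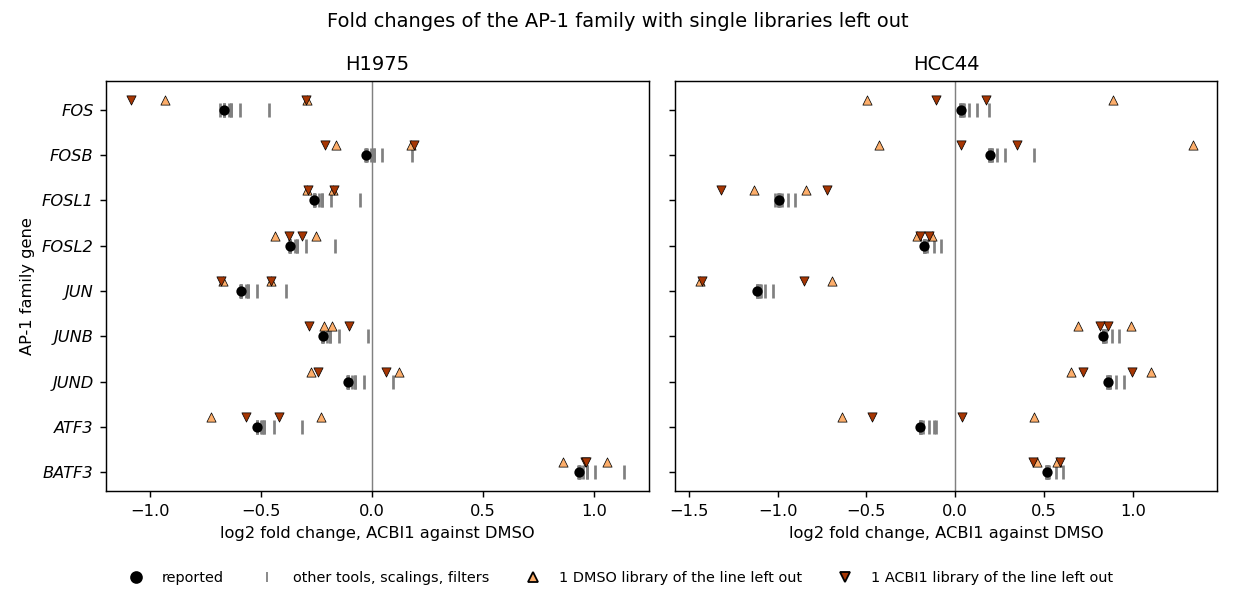
Log2 fold changes of the 9 members in each line as reported (black), under other tools, scalings and filters (grey ticks) and with 1 library of that line left out (triangles). FOS, FOSB and ATF3 in HCC44 cross 0 depending on which library is left out, whereas JUNB in HCC44 stays between 0.69 and 0.99.

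The response differed between the lines for 2 of 9 members, JUNB and JUND, where the difference was called for 18.6% of all tested genes, 10.2% above 0 and 8.4% below. JUNB's log2 fold change was 1.06 ± 0.15 higher in HCC44 than in H1975 (adjusted p 0.00133), and this held under all 16 alternatives, from 0.92 to 1.21. JUND's was 0.97 ± 0.25 higher (adjusted p 0.0297), and that call was lost in fits without H1975 DMSO replicate 2 (0.73), H1975 ACBI1 replicate 1 (0.79), HCC44 DMSO replicate 2 (0.76) or HCC44 ACBI1 replicate 2 (0.83). For FOSL1 the difference was -0.73 ± 0.25 with an adjusted p of 0.0778, and 4 alternatives called it, DESeq2 among them (-0.77, adjusted p 0.0145). JUN, called in HCC44 and not in H1975, had a difference of -0.52 ± 0.38 (95% interval -1.42 to 0.37, adjusted p 0.402), so its response was not shown to differ between the lines. FOSL2 (0.20, adjusted p 0.298) and BATF3 (-0.42, adjusted p 0.286) were not called either. The differences of FOS (0.70), FOSB (0.22) and ATF3 (0.32) had adjusted p-values of 0.519, 0.883 and 0.718. Without HCC44 DMSO replicate 1 FOSB's was 1.36 (adjusted p 0.0128), with the same limit on its p-value.

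The balance within the JUN family was also read inside each library, where the ratio of counts of 2 genes needs no scaling between libraries. In HCC44 the ratio of JUNB to JUN counts was 0.498 and 0.68 with DMSO and 2.67 and 1.85 with ACBI1. In H1975 it was 0.982 and 0.864 with DMSO and 1.21 and 1.17 with ACBI1. Both lines thus had a higher ratio in both ACBI1 libraries than in either DMSO library. For single genes, groups without overlap made up 67.3% of all tested genes in H1975 and 66.8% in HCC44. The HCC44 ratio restates the called fall of JUN and rise of JUNB, and in H1975 neither gene was called. No test was made on the ratios.

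Levels of different genes were compared per kilobase of annotated exon. JUNB had the highest level of the 9 in all 4 groups, from 220 ± 18 CPM per kb (SD, n = 2) in H1975 ACBI1 to 433 ± 9.6 CPM per kb in HCC44 ACBI1. BATF3 had the lowest, at 1.21 to 2.58 CPM per kb. In H1975 DMSO the levels of JUN (143 ± 11), FOSL1 (130 ± 11) and JUND (129 ± 22) followed JUNB and did not differ beyond their spread. FOS (48.7 ± 14), ATF3 (32.4 ± 6.9), FOSL2 (31.5 ± 2.0) and FOSB (6.48 ± 0.90 CPM per kb) came after them. FOS lay below the spread of JUND and FOSB below that of FOSL2, while ATF3 overlapped with both of its neighbours, FOS and FOSL2. In HCC44 DMSO the order was JUNB (243 ± 36), JUN (221 ± 80), FOS (144 ± 92), FOSL1 (141 ± 21), JUND (118 ± 26), ATF3 (61.6 ± 31), FOSB (55.2 ± 43), FOSL2 (39.0 ± 1.4) and BATF3 (1.80 ± 0.10 CPM per kb). Neighbours in that list down to FOSL2 overlapped in their spread. In HCC44 ACBI1 JUND (214 ± 29) was next after JUNB, followed by FOS (148 ± 20), JUN (102 ± 28), FOSL1 (71.0 ± 20), FOSB (63.4 ± 9.7), ATF3 (53.8 ± 13) and FOSL2 (34.6 ± 0.92 CPM per kb). In H1975 ACBI1 it was again JUND (120 ± 17), then FOSL1 (109 ± 6.7), JUN (95.2 ± 10.0), FOS (30.7 ± 11), FOSL2 (24.4 ± 0.84), ATF3 (22.7 ± 1.5) and FOSB (6.38 ± 1.2 CPM per kb). Ranks between JUNB and BATF3 shifted for some members with the longest transcript as the length. Averaged over the 8 libraries, JUNB, JUND and JUN were above 99.5%, 99% and 98.9% of 16209 tested genes with a length, and BATF3 above 37%.

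JUN made up 37.4 ± 4.6% (SD, n = 2) of the JUN family sum in HCC44 DMSO and 13.5 ± 2.6% in HCC44 ACBI1. JUNB went from 42.2 ± 4.1% to 57.9 ± 3.9% and JUND from 20.4 ± 0.48% to 28.6 ± 1.3% there. In H1975 JUN's share was 27.1 ± 0.61% with DMSO and 21.9 ± 0.010% with ACBI1. The JUN family sum in HCC44 was 682 and 481 CPM per kb with DMSO and 702 and 796 CPM per kb with ACBI1, and in H1975 it was 507 and 550 CPM per kb with DMSO and 403 and 467 CPM per kb with ACBI1.

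FOSL1 was the largest part of the FOS family in H1975, with 60.1 ± 6.6% in DMSO and 63.9 ± 5.8% in ACBI1. In HCC44 its share was 39.3 ± 10% in DMSO and 22.5 ± 7.1% in ACBI1, where FOS held 46.5 ± 5.1% and FOSB 19.99 ± 2.5%. FOSB held 2.99 ± 0.33% in H1975 DMSO. The FOS family sum in HCC44 was 488 and 271 CPM per kb with DMSO and 311 and 322 CPM per kb with ACBI1, so the ACBI1 libraries lay between the DMSO ones. In H1975 it was 212 and 221 CPM per kb with DMSO and 166 and 174 CPM per kb with ACBI1.

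**Figure D4:**
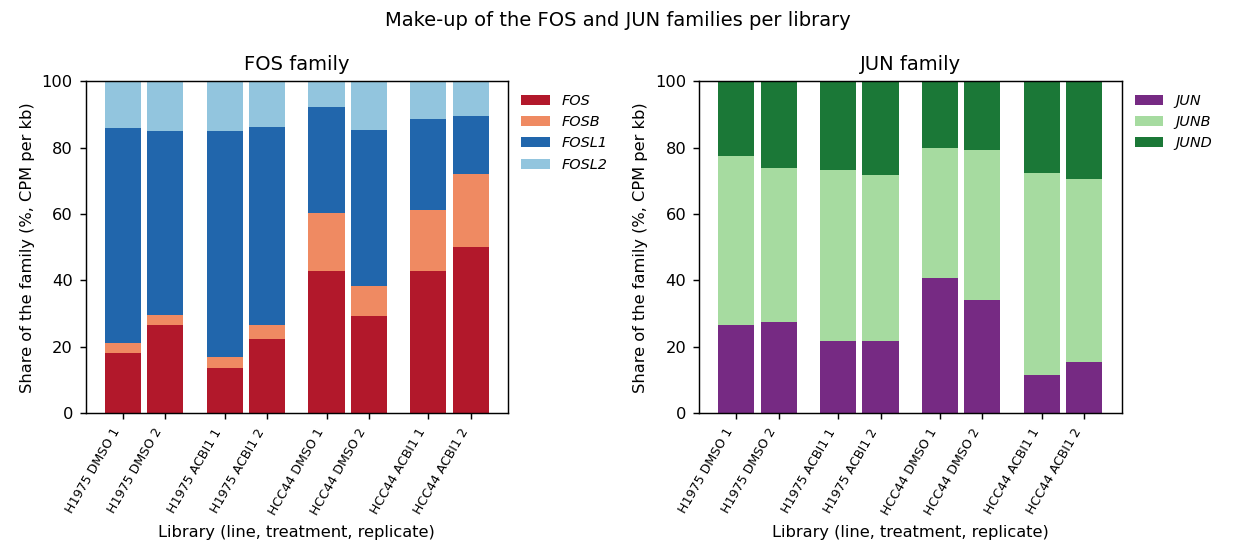
Share of each member in the summed CPM per kb of the FOS family (left) and the JUN family (right), 1 bar per library. JUN's share in HCC44 is 40.6 and 34.1% with DMSO and 11.7 and 15.3% with ACBI1, and FOSL1 is above 55% in all 4 H1975 libraries.

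Without ACBI1, 5 of 9 members differed between the lines, all higher in HCC44 DMSO than in H1975 DMSO, where 67.9% of all tested genes differed and 31.6% were higher in HCC44. The libraries of the lines did not overlap for 6 members, these 5 and JUN, and for 84.9% of all tested genes. FOSB had the largest gap, with 475 and 139 CPM in HCC44 against 32.5 and 39.5 CPM in H1975. That log2 difference of 3.09 ± 0.53 (adjusted p 0.00143) was 1.95 without HCC44 DMSO replicate 1 (adjusted p 2.37e-05), and 3 of 16 alternatives left it uncalled, among them fits without H1975 DMSO replicate 1 (2.95, adjusted p 0.0685) or replicate 2 (3.29, adjusted p 0.0581). FOS was higher by 1.56 ± 0.47 (adjusted p 0.0199) and by 0.71 without HCC44 DMSO replicate 1 (adjusted p 0.0975), and 9 of 16 alternatives left it uncalled, among them those without any single H1975 library or either HCC44 ACBI1 library (adjusted p 0.0628 to 0.236). ATF3 was higher by 0.93 ± 0.35 (adjusted p 0.0472), 0.29 without that library, and 12 of 16 alternatives left it uncalled, the same 6 omissions included (adjusted p 0.0773 to 0.329). FOSL2 (0.31 ± 0.085, adjusted p 0.00733) and BATF3 (0.57 ± 0.18, adjusted p 0.0147) were also higher in HCC44. FOSL2 lost the call with library totals (0.19) and in fits without H1975 DMSO replicate 1 (0.24) or HCC44 DMSO replicate 2 (0.27), and BATF3 in fits without H1975 DMSO replicate 2 (0.50) or HCC44 DMSO replicate 1 (0.52). JUN, FOSL1, JUNB and JUND were not called, with log2 differences of 0.62, 0.12, -0.08 and -0.13 and adjusted p-values of 0.0751, 0.565, 0.535 and 0.542. JUN was called with DESeq2 (0.63, adjusted p 0.00784), with non-robust dispersion (0.62, adjusted p 0.0341) and without HCC44 DMSO replicate 2 (0.95, adjusted p 0.00407).

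Genes around the family were described from lists of its known partners, kinases, regulators and targets. Counts are of genes at an adjusted p under 0.05 in the same edgeR fit. The lists were chosen with earlier results of these data known, so the counts describe the listed genes only. Of 14 other bZIP partners, 1 rose and 3 fell in H1975 and 0 rose and 5 fell in HCC44, where 14.6 and 16.7% of all tested genes rose and fell in H1975 and 17.5 and 17.4% in HCC44. DESeq2 also called 0 rises among them in HCC44, and edgeR had 0 above 0 at an unadjusted p under 0.05. Called partners made up 28.6% of the list in H1975 and 35.7% in HCC44, near the 31.3 and 34.9% of all tested genes. The counts are thus not a result about these partners. BATF gave a log2 fold change of 0 without a standard error in H1975 and counts there as not called. JDP2, the repressor gene next to FOS, was at 47.5 and 46.0 CPM in H1975 DMSO and at 28.1 and 26.8 CPM with ACBI1, a log2 fold change of -0.77 ± 0.11 (adjusted p 0.000499). CEBPB, a bZIP factor of inflammatory genes, also fell there (-0.39, adjusted p 0.0316). MAFK, a small MAF protein without an activation domain, rose in H1975 (0.35, adjusted p 0.02) and fell in HCC44 (-0.66, adjusted p 0.000517). The other named partners in HCC44 were DDIT3, the stress factor CHOP (-0.51, adjusted p 0.00297), and CREB5 (-0.45, adjusted p 0.0112), and both fell. JDP2 in H1975 and MAFK and DDIT3 in HCC44 were called under all 17 alternatives. The H1975 rise of MAFK was not called without DMSO replicate 2 (0.30, adjusted p 0.0963) or ACBI1 replicate 1 (0.29, adjusted p 0.121), and CREB5 was not called without HCC44 DMSO replicate 2 (-0.41) or ACBI1 replicate 2 (-0.28). CEBPB was left uncalled by 9 alternatives, among them DESeq2 (-0.36) and fits without H1975 DMSO replicate 2 (-0.17), H1975 ACBI1 replicate 1 (-0.22) or either HCC44 DMSO library (-0.39).

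Of 18 kinases that act on AP-1, 1 rose and 5 fell in H1975 and 4 rose and 5 fell in HCC44. Called kinases made up 33.3% of the list in H1975 and 50% in HCC44, against 31.3 and 34.9% of all tested genes. The H1975 count is thus not a result about the kinases. MAP2K1, the ERK kinase MEK1, fell in both lines (-0.37, adjusted p 0.008, and -0.82, adjusted p 5.7e-05), and MAPK11, a p38 kinase, rose in both (0.99, adjusted p 0.0129, and 2.90, adjusted p 3.87e-05). MAPK3, an ERK kinase, rose in HCC44 (0.34, adjusted p 0.0418). MAPK8, which encodes JNK1, a kinase of the JUN activation domain, fell in HCC44 from 47.9 and 55.6 to 31.1 and 29.8 CPM (-0.77, adjusted p 0.000365), as did MAP2K3, a kinase above p38 (-0.79, adjusted p 0.000477). MAPK7, which encodes ERK5, fell in H1975 (-0.73, adjusted p 0.000913). MAPK7 in H1975 and MAP2K1, MAP2K3, MAPK8 and MAPK11 in HCC44 were called under all 17 alternatives. In H1975 MAPK11 was not called without DMSO replicate 2 (0.87, adjusted p 0.0633), nor MAP2K1 with library totals (-0.17) or without DMSO replicate 1 (-0.32) or ACBI1 replicate 2 (-0.29). MAPK3 in HCC44 was left uncalled by 10 alternatives (adjusted p up to 0.274), among them the omission of any library except HCC44 ACBI1 replicate 1.

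Of 8 factors known from the FOS promoter, 1 rose and 2 fell in each line. That is 37.5% of the list, near the 31.3% of all tested genes called in H1975 and 34.9% in HCC44. The counts are thus not a result about these factors. The riser in both was SRF, the serum response factor (0.72, adjusted p 0.00161, in H1975 and 0.37, adjusted p 0.0405, in HCC44). MRTFA (-0.36, adjusted p 0.0174) and STAT3 (-0.27, adjusted p 0.0334) fell in H1975, and CREB1 (-0.54, adjusted p 0.00431) and ELK4 (-0.36, adjusted p 0.0339) in HCC44. With library totals in H1975, the kinases counted 4 rises and 2 falls and the promoter factors 4 rises and 0 falls. Leaving out a single H1975 library left 2 or 3 fallen kinases and 0 fallen promoter factors in that line. In HCC44, 1 kinase rose and 3 fell without DMSO replicate 2, and the rise of SRF was not called with RLE factors, with DESeq2 or without either DMSO library or ACBI1 replicate 1. SRF in H1975 and CREB1 in HCC44 were called under all 17 alternatives. MRTFA and STAT3 were not called with library totals (-0.16 and -0.065), and STAT3 also not with DESeq2 (-0.24) or without either HCC44 DMSO library (-0.27). ELK4 was not called under 5 alternatives, library totals (-0.26) and fits without HCC44 DMSO replicate 2 or ACBI1 replicate 2 (both -0.21) among them.

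Among the 21 immediate-early genes, 2 rose and 8 fell in H1975, and the median of their log2 values was -0.57. Called genes made up 47.6% of this list, against 31.3% of all tested genes in that line. Leaving out any single H1975 library left 4 or 5 fallen genes. In HCC44 4 rose and 5 fell with a median of -0.14, so that 42.9% were called against 34.9% of all tested genes. Without DMSO replicate 1 the counts were 5 and 3 and the median 0.20, and without DMSO replicate 2 they were 1 and 8 and the median -0.49. MYC rose in both lines (0.43, adjusted p 0.0309, and 0.58, adjusted p 0.00617). CSRNP1, a nuclear immediate-early protein, fell in both (-1.39, adjusted p 0.00429, and -1.63, adjusted p 0.00161), and so did CCN2, a matricellular protein (-1.47, adjusted p 0.025, and -1.25, adjusted p 0.0391). KLF4 fell in H1975 (-1.43, adjusted p 0.000495). In HCC44 the orphan nuclear receptors NR4A3 (1.45, adjusted p 0.00535) and NR4A1 (0.44, adjusted p 0.0381) rose. DUSP1, a MAPK phosphatase, fell there from 389 and 166 to 84.0 and 109 CPM (-1.52, adjusted p 0.0155). KLF4 was also called as a fall in HCC44 (-0.70, adjusted p 0.0128). H1975 likewise had a called rise of NR4A3 (1.33, adjusted p 0.0153), at means below 5 CPM, and a called fall of DUSP1 (-1.19, adjusted p 0.0422). NR4A1 was not called in H1975 (0.19, adjusted p 0.377).

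KLF4 in H1975 and NR4A3 and CSRNP1 in HCC44 were called under all 17 alternatives, and the other selected immediate-early calls were not. KLF4 in HCC44 and NR4A3 and DUSP1 in H1975 were not followed under the alternatives. MYC in H1975 was not called without DMSO replicate 1 (0.34), ACBI1 replicate 1 (0.49) or ACBI1 replicate 2 (0.42), and in HCC44 without DMSO replicate 2 (0.37, adjusted p 0.0584). In H1975 CSRNP1 was not called without DMSO replicate 2 (-1.26) or either ACBI1 library (-1.36 and -1.38), nor was CCN2 whichever H1975 library was left out (-1.57 to -1.32). In HCC44 CCN2 was at 305 and 131 CPM with DMSO and 111 and 72.2 CPM with ACBI1. Its fall was -0.52 without DMSO replicate 1 (adjusted p 0.126), and 11 alternatives left it uncalled, every omission of a library except DMSO replicate 2 included. DUSP1 was at -0.79 without DMSO replicate 1 (adjusted p 0.0101) and at -2.00 without DMSO replicate 2, and 8 alternatives left it uncalled, among them the omission of any H1975 library or either HCC44 ACBI1 library (adjusted p 0.074 to 0.119). NR4A1 was not called without HCC44 DMSO replicate 2 (0.25) or ACBI1 replicate 2 (0.32).

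Of 24 known AP-1 targets, 23 were tested and MMP3 did not pass the filter. Of these, 2 rose and 13 fell in H1975 and 1 rose and 9 fell in HCC44. Called genes made up 65.2 and 43.5% of the tested targets, against 31.3 and 34.9% of all tested genes. The medians were -1.03 and -0.53, where those of all genes were -0.014 and 0.006. In HCC44 IVL and SPRR1B gave a log2 fold change of 0 without a standard error and count as not called. With HCC44 fitted alone, 18 targets were tested, of which 2 rose and 9 fell, with a median of -0.58. Because the list was chosen with earlier results of these data known, these values do not test whether AP-1 targets fell as a class. The H1975 median was -0.64 without ACBI1 replicate 2, with 10 fallen genes. In HCC44, omitting DMSO replicate 1 gave a median of -0.24 and omitting ACBI1 replicate 2 one of -0.32, each with 7 fallen genes. With library totals 3 targets rose and 8 fell in HCC44. IL11, a cytokine, was at 214 and 264 CPM in H1975 DMSO and at 25.3 and 28.2 CPM with ACBI1 (-3.16 ± 0.18, adjusted p 7.58e-06). In HCC44 IL11 went from 422 and 303 to 8.71 and 10.4 CPM (-5.25 ± 0.20, adjusted p 5.15e-07). MMP9, a gelatinase (-3.05, adjusted p 8.4e-06), and CXCL8, a neutrophil chemokine (-2.19, adjusted p 0.00485), fell in H1975. PLAUR, the urokinase receptor (-2.06, adjusted p 8.75e-07), and HBEGF, an EGFR ligand (-1.74, adjusted p 0.000781), fell in HCC44. MMP9 was also called as a fall in HCC44 (-1.53, adjusted p 0.01), where its DMSO level was far lower than in H1975 (log2 difference -5.88). PLAUR (-1.03, adjusted p 9.19e-05) and HBEGF (-0.73, adjusted p 0.0477) were called as falls in H1975 too. CXCL8 was not called in HCC44 (-0.53, adjusted p 0.3). These other-line values were not followed under the alternatives. LIF, a cytokine of the IL-6 class, rose in both lines (0.52, adjusted p 0.0149, and 0.86, adjusted p 0.000754), and DNMT1, the maintenance DNA methyltransferase, rose in H1975 (0.25, adjusted p 0.0332). IL11 in both lines, MMP9 in H1975 and PLAUR, HBEGF and LIF in HCC44 were called under all 17 alternatives. LIF in H1975 was not called without DMSO replicate 2 (0.39, adjusted p 0.0632). Neither CXCL8 (-2.36 to -1.92) nor DNMT1 (0.27 to 0.30) was called, whichever H1975 library was left out, and DNMT1 also not without either HCC44 DMSO library.

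**Figure D5:**
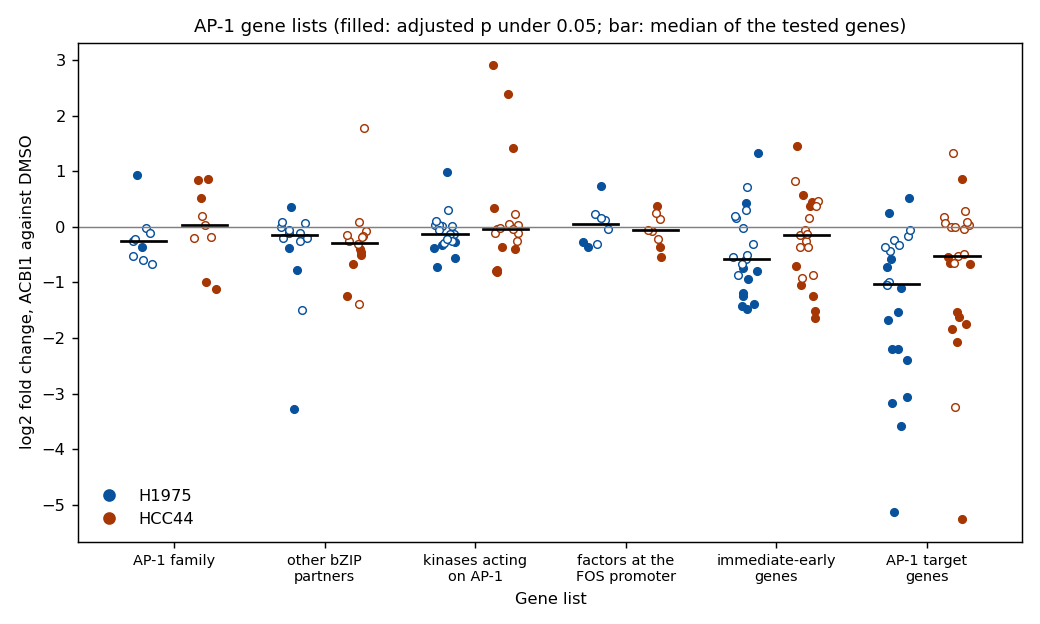
Log2 fold change with ACBI1 against DMSO for the 9 AP-1 family genes and 5 lists of related genes (1 point per tested gene, filled when the adjusted p was under 0.05, bars at the median). The AP-1 target genes have medians of -1.03 in H1975 and -0.53 in HCC44, and the AP-1 family medians are -0.26 and 0.035. IVL and SPRR1B in HCC44 and BATF in H1975 are drawn at 0 and have no standard error. All lists were chosen with earlier results of these data known.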

How the data were processed

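The authors deposited unnormalized RNA-seq counts of reads per gene, in a separate table for each library. TopHat2 2.1.1, HTSeq 0.11.0 and hg38 are named per the submitters' processing notes, and the strand setting and annotation are not given in the sources used here. Lines for reads without a gene (5 per table, 14.3 to 15.8% of its sum) were left out.

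Genes were kept by filterByExpr, libraries scaled by TMM, and edgeR 4.0.16 (R 4.3.3) fitted 1 mean per group to the 8 libraries together (4 residual degrees of freedom, robust dispersion). Two-sided quasi-likelihood F-tests used Benjamini-Hochberg adjustment over 21307 genes with a threshold of 0.05. Standard errors are the log2 fold change over the square root of F. CPM are TMM-scaled. Lengths and coordinates are from GENCODE 29 (GRCh38), upstream sequences from RefSeq (GRCh38.p14). Replicates differed beyond sampling noise (chi-square per degree of freedom 21.7 to 43.5). The code was tested on simulated counts.

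The members and lists were chosen with earlier results of these data known. Named list genes are the 3 largest called rises and the 3 largest called falls per list and line, provided 1 group of the line averaged 5 CPM or more; MMP3 is named besides, and 1 gene that the rule selects is not reported here. The likeness measure is the root mean square difference of centred log2 CPM profiles. Alternatives were DESeq2 1.42.0, RLE and upper-quartile factors, library totals, other filters, each line alone, a replicate block, non-robust dispersion and each library left out. List counts in HCC44 without DMSO replicate 1 and the alternatives for single list genes were added after seeing the data.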

Additional observations from a re-analysis of the deposited data

Results flagged for a closer look

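JUNB and JUND are given for a closer look because the test of the difference between the lines itself passed the threshold. The log2 fold change with ACBI1 was higher in HCC44 than in H1975 by 1.055 for JUNB (0.83 against -0.22) and by 0.968 for JUND (0.86 against -0.11). JUNB's call held under all 16 alternatives, while JUND's was lost under 4 of them.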

How the results depend on the processing

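Of 594 values of single members under the alternatives, 506 kept their direction and their side of the threshold, 52 lost the call, 16 gained it and 20 changed sign. With library totals the median gene moved by 0.19 in H1975, 0.087 in HCC44 and -0.11 in the line difference on the log2 scale, and the share of calls that were rises went from 46.6 to 72.3% in H1975, from 50 to 60.5% in HCC44 and from 54.9 to 40.5% in the difference.

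In H1975 the count of 2 called members was 1 with library totals and 4 with the line fitted alone, and in HCC44 the count of 5 was 3 without the filter. Between the DMSO groups the count of 5 was 3 with library totals and 3 without the filter. With single libraries left out, called genes numbered 3690 to 7161 in H1975 (6663 with all libraries; 4342 without DMSO replicate 1 and 3690 without ACBI1 replicate 2), 4945 to 7342 in HCC44 (7438; 4945 without DMSO replicate 2) and 2341 to 4134 for the difference (3967; 2481 without H1975 ACBI1 replicate 2, 2341 and 2598 without HCC44 DMSO replicate 1 and 2). The causes were not tested. With the lines fitted alone, no value can be had for the difference or the DMSO groups. Called members with single libraries left out numbered 1 to 3 in H1975, 3 to 5 in HCC44 (3 without either ACBI1 library of either line), 1 to 3 for the difference and 1 to 5 between the DMSO groups.

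Same-numbered libraries deviated together within a line (r = 0.665 in H1975 and 0.21 in HCC44 across 11659 genes) and not across lines (-0.055 to -0.011), and no label says that a number marks a shared batch. With the replicate number as a block, 4 members were called in H1975, 3 between the DMSO groups and 6358 genes for the difference, FOSL1 (-0.26) and ATF3 (-0.50) were called in H1975, FOSL1 was called for the difference (-0.76), and JUN in HCC44 (-1.09) and FOS (1.49) and FOSB (2.93) between the DMSO groups were not called.

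Signs changed for FOSB in H1975 with RLE factors (0.008), DESeq2 (0.008), upper-quartile factors (0.048) and library totals (0.18), and for JUND in H1975 with library totals (0.095). With single libraries left out, FOSB ranged from -0.21 to 0.19 and JUND from -0.27 to 0.12 in H1975. In HCC44 FOS ranged from -0.50 to 0.89, FOSB from -0.43 to 1.34 and ATF3 from -0.64 to 0.44. The line difference ranged from -0.40 to 1.36 for FOSB and from -0.12 to 0.96 for ATF3, and the gap between DMSO groups from -0.031 to 0.26 for FOSL1, -0.23 to 0.062 for JUNB and -0.37 to 0.10 for JUND.

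In CPM without division by length, FOSL1's share of its family was 37.1 and 39.9% in H1975 DMSO and ACBI1 and 21.5 and 11.2% in HCC44 DMSO and ACBI1, and JUN's share was 41.7, 35.1, 53.5 and 23.1% in the same order, because FOSL1 is short and JUN long for its family.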

Other observations

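The transcripts whose pattern over the 8 libraries was closest to a member were looked up among the 11650 other tested genes whose mean reached 5 CPM. FOSL1 lay nearest to CD274, which encodes the checkpoint ligand PD-L1, at a root mean square difference of 0.0849 log2 units, where the median over all candidates was 0.599. ATF3 lay nearest to EGR1, an immediate-early gene (0.16, median 0.69), FOS to ADM, which encodes adrenomedullin (0.176, median 1.075), and FOSB to DUSP6, a phosphatase of ERK (0.387, median 1.616). CCDC102A was among the 2 nearest genes of both JUNB (0.0814, median 0.548) and JUND (0.142, median 0.56). FOSL2 was nearest to CDV3 (0.0455, median 0.434), JUN to BAZ2B (0.194, median 0.638) and BATF3 to KLF16 (0.123, median 0.589). The 8 libraries share 2 lines and 2 treatments, so closeness over them is a description of these groups and no test was made. The nearest of 11650 genes lies below their median by selection, so the medians only give the scale. Medians and nearest distances were taken with different small offsets before the logarithm.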
